A study of Mus musculus with 11 samples.

Results

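The genes described here encode the proteins of the mitochondrial ribosome, measured in the hippocampus of mice given the chemotherapy combination AC-T or saline. They were taken by symbol: Mrpl (large subunit) or Mrps (small subunit) followed by a digit, with a mean count of at least 10. All 81 rows with such a symbol qualified, out of 17118 genes in the table: 48 large subunit genes, 29 small subunit genes and 4 pseudogenes of such genes. None was listed at 0 in any library, and all 81 were among the 15353 genes tested. The mice were females of the C57/BL6J strain, 12 weeks old at treatment, without any engineered allele named in the labels. AC-T mice were injected intraperitoneally once a week: 4 times with cyclophosphamide at 50 mg/kg together with doxorubicin at 2 mg/kg, and 4 times after that with paclitaxel at 5 mg/kg. Control mice had 8 weekly injections of 0.9% saline. Hippocampal tissue, labelled as collected at one month, was punched from frozen coronal slices. There were 5 AC-T and 6 saline libraries, 1 mouse each, and the series' design states 6 per group.

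Mitochondria translate the few messenger RNAs of their own genome, all of which encode core subunits of the respiratory chain or ATP synthase, on a ribosome of their own. Its ribosomal RNAs come from mitochondrial DNA, whereas every one of its proteins is encoded in the nucleus, made in the cytosol and imported. Part of these proteins descend from the bacterial ribosome and the rest were gained in the mitochondrial lineage, so the particle is richer in protein than its bacterial relative. Neurons depend heavily on the respiratory chain that this ribosome supplies.

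Library totals lay between 23.4 and 32.1 M counts (M, mega). The mouse numbers fall into series by their first digit, and these are nested in treatment: series 2 and 3 had saline, series 5 and 6 AC-T. Treatment and series therefore cannot be told apart. The score of 12 thalamic markers (mean log2 CPM, counts scaled to a common library size) was 4.77 ± 0.34 (SD, n = 5) in AC-T and 5.96 ± 0.32 (n = 6) in saline libraries, with no overlap (exact permutation test, 2-sided p = 0.00216, which no split of the 462 can go below; 0.0325 after adjustment over 15 library measures). All 12 markers were lower, 11 of them past the edgeR threshold, and their summed level was 621 to 896 CPM in AC-T against 1179 to 1730 in saline. The score of CA1 markers was higher in every AC-T library than in any saline library (5.86 ± 0.16 against 4.54 ± 0.87, exact permutation p = 0.00649, adjusted 0.0433). Neuron markers scored higher in AC-T libraries (9.16 ± 0.098 against 8.93 ± 0.14, exact permutation p = 0.0152, adjusted 0.0568) and endothelial markers lower (5.44 ± 0.14 against 5.62 ± 0.044, exact permutation p = 0.00866, adjusted 0.0433). The marker lists were chosen with earlier results of these data known, so these p-values describe the libraries and are not independent support. Hippocampal markers were present in every library, with dentate granule markers summing to 222 to 455 CPM and CA1 markers to 134 to 665. Some fits given below include a marker score, but the thalamic score did not overlap between the treatments. A fit with it can hardly tell treatment and tissue makeup apart, and 0.00651% of all genes tested passed in it. The part of tissue makeup in the results was not tested. The library of saline mouse 300 was listed at 0 for Xist, which had at least 13057 counts in each other library, although its label says female. In such bulk tissue, fewer cells of a type and less RNA per cell cannot be told apart.

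The mitochondrial ribosomal protein genes differed little between AC-T and saline. The 48 large subunit genes summed to 1301 ± 58.4 CPM in AC-T (n = 5) and 1310 ± 43.8 in saline libraries (n = 6), and the 29 small subunit genes to 709 ± 24.7 and 709 ± 21.9. Large over small subunit sums gave a ratio of 1.83 ± 0.022 and 1.85 ± 0.019. All 81 rows together took 0.195% to 0.220% of the counts of a library. Of the 81, 1 passed the test (edgeR quasi-likelihood, adjusted p under 0.05), or 1.23%, where 8.47% of all genes tested passed (4.89% as higher and 3.58% as lower). This gene was Mrpl54, which was lower in AC-T.

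**Figure D1:**
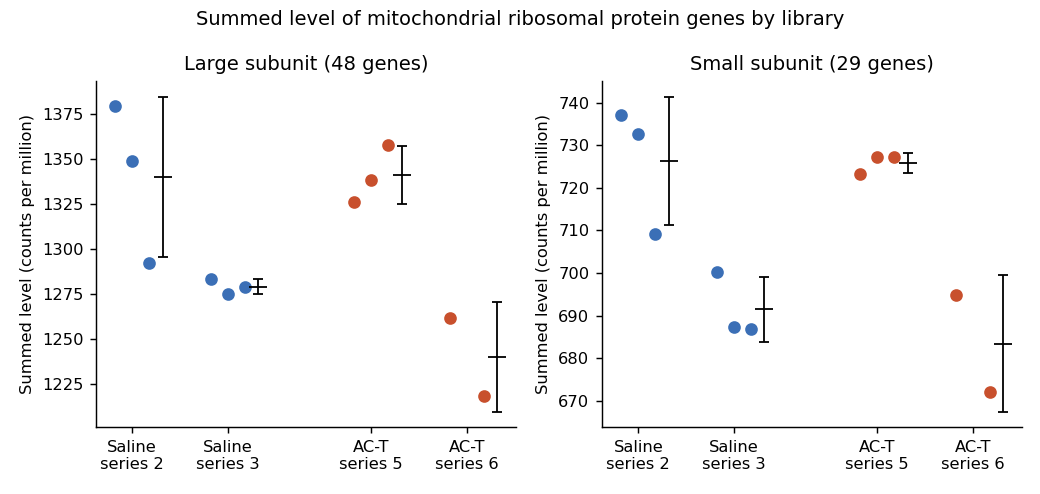
Summed level (CPM, vertical axis, not starting at 0) of the 48 large and 29 small subunit genes in each library, by treatment and mouse series, with mean ± SD beside the points. The ranges of AC-T and saline libraries overlap, both libraries of series 6 have large subunit sums below every saline library, and within each treatment series 3 and 6 lie below series 2 and 5.

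Mrpl54 (ENSMUSG00000034932) encodes a large subunit protein without a bacterial counterpart. In saline mice 201, 202, 203, 300, 301 and 302 its level was 17.2, 16.8, 16.4, 17.7, 14.9 and 17.0 CPM, from 407 to 533 counts. In AC-T mice 501, 502, 503, 600 and 602 it was 14.2, 13.2, 15.4, 13.6 and 12.7 CPM, from 382 to 464 counts. The groups overlapped only through saline mouse 301, which lay below AC-T mouse 503. The log2 fold change was −0.27 ± 0.06 (SE), a level 17.0% lower, with an adjusted p of 0.0220 in edgeR. Without AC-T mouse 502 or 602 the adjusted p was 0.0607 or 0.0557, and with mouse series as a random effect in limma-voom it was 0.0973. It was 0.108, 0.0503 and 0.105 without mouse series 2, 5 and 6. With the thalamic marker score in the fit, where 0.00651% of all genes tested passed, the log2 fold change was −0.21 and the adjusted p 0.870. With the neuron score, where 1.17% passed, they were −0.21 and 0.243. Without saline mouse 300 the log2 fold change was −0.26 with an adjusted p of 0.0377.

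An unadjusted p under 0.05 was reached by 6 members, or 7.41%, against 24.9% of all genes tested. Besides Mrpl54 these were Mrpl14, Mrps24 and Mrps21, which were lower in AC-T on average, and Mrpl19 and Mrps30, which were higher. None of the 5 passed after adjustment over all genes, with adjusted p from 0.0710 to 0.182 in edgeR. In DESeq2, where 16.7% of all genes tested passed, Mrpl54, Mrpl14, Mrps24, Mrps21 and Mrpl19 passed. In limma-voom, where 8.69% passed, Mrpl54 did.

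Mrpl14 (ENSMUSG00000023939), a conserved protein at the face of the large subunit that meets the small one, had 13.9, 14.0, 14.98, 13.8, 14.1 and 14.8 CPM in the saline mice, in the order above. It had 13.7, 12.3, 13.7, 11.9 and 10.98 CPM in the AC-T mice. It was the only member whose groups did not overlap (1.23%, against 3.1% of all genes tested whose AC-T libraries all lay lower), although the lowest saline and highest AC-T libraries nearly met. Its log2 fold change was −0.19 ± 0.06 (adjusted p = 0.0757).

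Mrps24 (ENSMUSG00000020477), a conserved protein of the small subunit head, had 20.5, 21.5, 20.6, 21.1, 22.4 and 21.7 CPM in saline and 20.6, 19.0, 19.7, 18.1 and 16.0 CPM in AC-T libraries. The lowest value was that of AC-T mouse 602, and mouse 501 lay within the saline range. Its log2 fold change was −0.19 ± 0.06 (adjusted p = 0.0737). Mrps24 overlaps Urgcp on the same strand, where reads of 2 genes can be divided between them. Divided reads give values that are not whole numbers, and 9.09% of the values of Mrps24 were such, namely 587.15 counts in saline mouse 300. The log2 fold change of Urgcp was 0.11 (adjusted p = 0.0667), and a link between the 2 genes was not tested.

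Mrps21 (ENSMUSG00000054312), a small protein of the small subunit, had 28.5 to 32.6 CPM in saline (median 30.5) and 27.2 to 28.8 CPM in AC-T libraries. All but 1 AC-T library lay below every saline library. Its log2 fold change was −0.12 ± 0.04 (adjusted p = 0.105).

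Mrpl19 (ENSMUSG00000030045), a conserved large subunit protein, had 27.6, 26.6, 25.4, 24.4, 25.1 and 23.6 CPM in saline and 26.5, 29.4, 27.6, 28.6 and 28.9 CPM in AC-T libraries. The groups overlapped through AC-T mice 501 and 503 and saline mice 201 and 202. The log2 fold change was 0.15 ± 0.05 (adjusted p = 0.0710), the highest of the 81. Mrps30 (ENSMUSG00000021731) had 14.2 to 17.4 CPM in saline (median 15.5) and 15.9 to 17.9 in AC-T libraries, with a log2 fold change of 0.13 ± 0.06 (adjusted p = 0.182). Both genes overlap a gene on the opposite strand. Of the 77 members that are not pseudogenes, 26 overlap another protein-coding gene, 4 of them on the same strand.

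**Figure D2:**
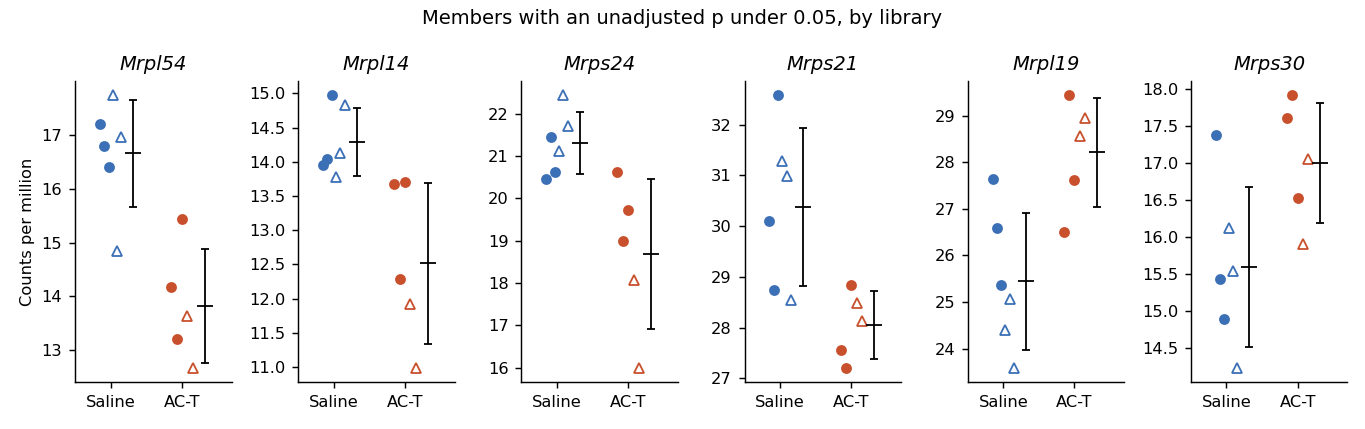
Level (CPM, vertical axes, not starting at 0) of the 6 members with an unadjusted p under 0.05 in each library, with mean ± SD. Filled circles are mouse series 2 and 5, open triangles series 3 and 6. Of the 6 genes, Mrpl14 has groups that do not overlap.

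Next in order of p were Mrps17, Mrps31, Mrpl43 and Mrpl16, all with a positive log2 fold change and none past the threshold. Mrps17, which binds ribosomal RNA early in assembly of the small subunit, had 47.7 ± 1.61 CPM in saline and 50.3 ± 1.60 in AC-T libraries (log2 fold change 0.077 ± 0.036, adjusted p = 0.205). Mrps31 had 15.02 ± 0.646 and 16.2 ± 1.03 CPM (0.11 ± 0.05, adjusted p = 0.210). Mrpl43 had 25.5 ± 0.963 and 26.8 ± 0.580 CPM (0.074 ± 0.036, adjusted p = 0.229). Mrpl16, a conserved large subunit protein, had 14.5 ± 1.41 and 15.7 ± 0.591 CPM (0.12 ± 0.07, adjusted p = 0.294). Its 3 libraries of saline series 3 held 12.8 to 13.7 CPM and those of series 2 held 15.1 to 16.5, the latter close to the AC-T range of 15.1 to 16.7.

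The size of the differences was small in this fit. Log2 fold changes of the 81 ran from −0.27 to 0.15, with 36 above 0 and 45 below. Only Mrpl54 differed by more than 1.2-fold (1.23% of members, against 17.7% of all genes tested), and 6 members differed by more than 1.1-fold (7.41% against 40.6%). The 95% interval of the fold change lay within 1.2-fold in either direction for 70 of 81 (86.4%, against 42.9% of all genes tested). It lay within 1.5-fold for 80 of 81 (98.8% against 80.6%), and the exception was Mrpl23. The members were measured somewhat more tightly than the average gene, with a median SE of 0.060 against 0.078 and a median biological coefficient of variation of 0.072 against 0.093. These intervals take the mice as independent and leave out mouse series and tissue makeup. With mouse series as a random effect in limma-voom, 64 of 81 intervals lay within 1.2-fold (79.0%, against 34.5% of all genes tested) and 80 within 1.5-fold. With the thalamic marker score in the edgeR fit, the median SE was 0.13, and 5 of 81 intervals lay within 1.2-fold (6.17%, against 5.04%) and 72 within 1.5-fold (88.9%, against 54.7%).

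**Figure D3:**
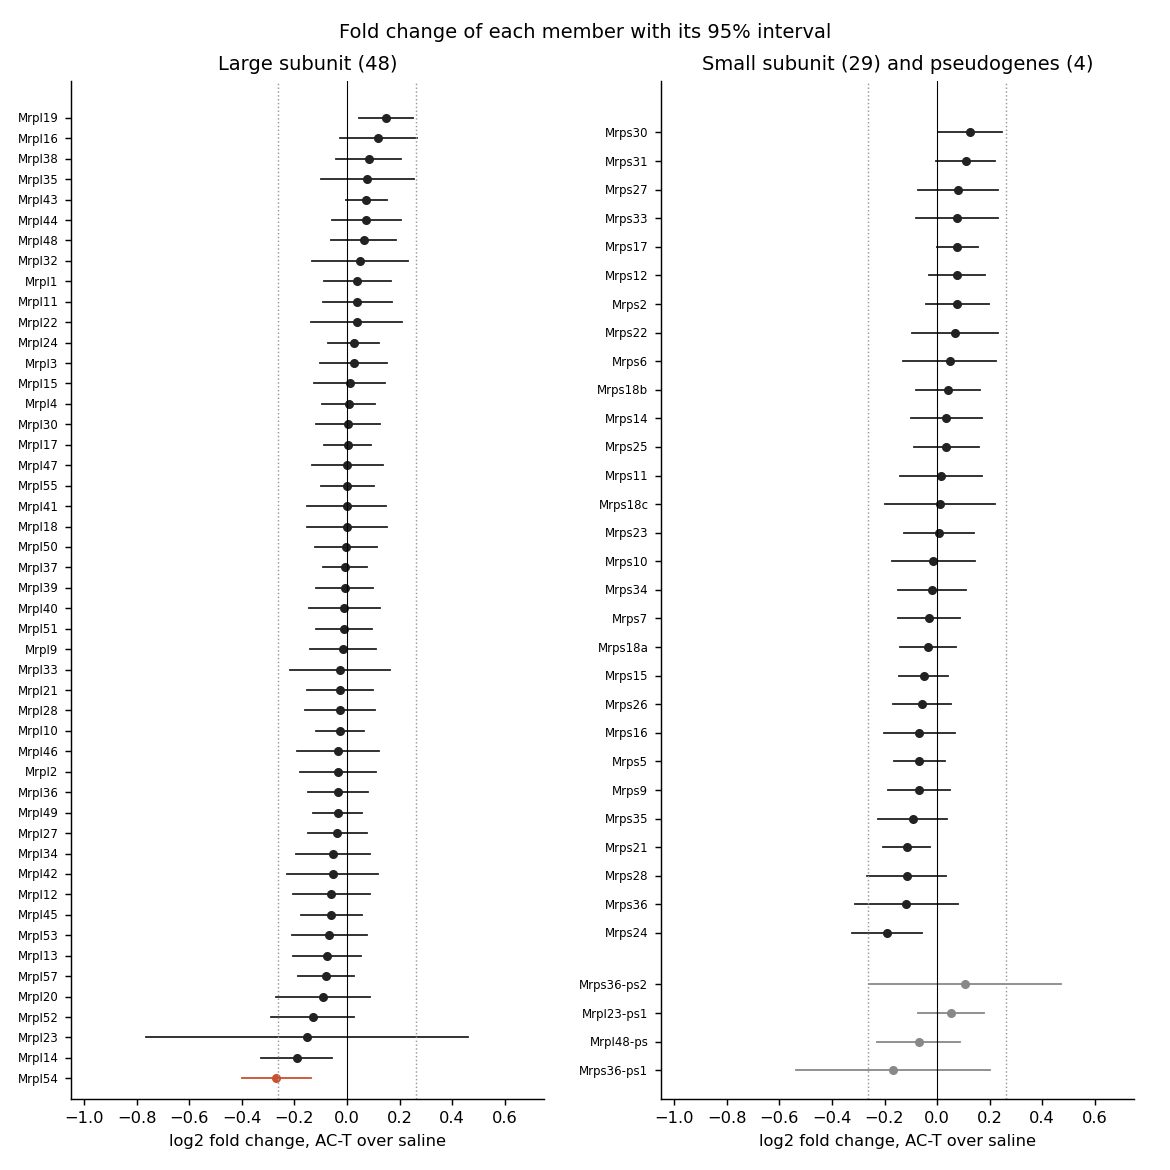
Log2 fold change of AC-T over saline (horizontal axis) for each member, with its 95% interval. Dotted lines mark 1.2-fold either way, the 4 pseudogenes are grey, and the member past the threshold, Mrpl54, is orange. The intervals of 70 of the 81 lie between the dotted lines.

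The median of each subunit was near 0 under every scaling run, but moved with the libraries and covariates used. The median log2 fold change was −0.0090 over the 48 large and 0.0074 over the 29 small subunit genes, beside −0.0029 over all genes tested. With 3 other scalings of the libraries the medians lay between −0.034 and −0.018 (large) and between −0.018 and −0.0020 (small). All genes tested then had medians between −0.028 and −0.012, so the sign of the small subunit's median depends on the scaling. Minus the median of all genes, the small subunit's was 0.0077 to 0.010 under these scalings and the large subunit's −0.0072 to −0.0060. With the thalamic marker score in the fit the medians were 0.081 (large) and 0.12 (small), beside 0.00012 over all genes tested. In that fit 59 of the 81 members were above 0. Without mouse series 5 the subunit medians were −0.095 and −0.062. In the large subunit 19 genes were above 0 and 29 below, and 1 passed. In the small subunit 15 were above 0 and 14 below. No small subunit gene passed in edgeR or limma-voom, 3 had an unadjusted p under 0.05, and 2 (Mrps21 and Mrps24) passed in DESeq2. The genes were also split by descent. The 48 with a bacterial counterpart had a median of −0.0077 and the 29 without one −0.0081. None of the 48 passed in edgeR or limma-voom, with 4 at an unadjusted p under 0.05 and 4 past the threshold in DESeq2.

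The symbols Mrps18a, Mrps30 and Mrps36 place a gene in the small subunit where its protein does not sit. Mrps18a and Mrps30 encode proteins found in the large subunit, and the protein of Mrps36 belongs to the alpha-ketoglutarate dehydrogenase complex of the citric acid cycle. Mrps18a had 32.3 ± 2.10 CPM in saline and 31.5 ± 1.12 in AC-T libraries (log2 fold change −0.034 ± 0.049, adjusted p = 0.724). Mrps36 had 11.3 ± 1.28 and 10.4 ± 1.05 CPM (−0.12 ± 0.09, adjusted p = 0.463). With these genes placed by position, the large subunit had 50 genes with a median log2 fold change of −0.0090 and the small one 26 genes with a median of 0.0093.

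Levels per length differed widely among genes whose proteins are part of the same particle. Divided by the median length of the annotated coding transcripts, the mean over all 11 libraries was highest for Mrpl20 (99.8 CPM per kilobase), Mrps21 (72.4), Mrpl41 (70.4) and Mrps33 (58.2). The first 3 kept these places when the longest transcript was used. Other places depended on the length used: Mrps33 went from place 4 to 7, and Mrps17 from 5 to 60. Mrpl20, a conserved protein of the large subunit, had 103 ± 3.39 CPM per kilobase in saline and 96.4 ± 13.9 in AC-T libraries. Mrpl41 had 70.4 ± 1.65 and 70.4 ± 8.49, and Mrps33 had 56.7 ± 3.10 and 59.9 ± 6.64. Mrps21 had 74.99 ± 3.85 and 69.2 ± 1.65. In saline libraries Mrps21 and Mrpl41 did not differ beyond their spread, while Mrpl20 lay above both and Mrps33 below both. In AC-T libraries the spread of Mrpl41 took in the levels of Mrps21 and reached that of Mrps33. At the low end stood Mrpl32 with 3.91 and Mrpl23 with 1.73 CPM per kilobase. With the longest transcript Mrpl23 stayed last, and Mrpl32 moved from place 76 to 74. The protein of Mrpl32 is cut to its mature form by a protease of the inner membrane before it joins the ribosome.

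The steadiest members among saline mice were Mrpl41 and Mrpl24, with a coefficient of variation of 2.34% and 2.51%. The most variable were Mrpl23 with 28.3% and Mrps36-ps1 with 17.5%, both with low counts. The median over the 81 was 6.25%, against 8.81% over all genes tested. Mrpl41 was steady in saline mice at 40.4 to 42.9 CPM. In AC-T mice it ranged from 34.6 (mouse 602) to 46.9 (mouse 503). Mrpl24, whose protein lies near the exit of the peptide tunnel, had 34.8 ± 0.874 CPM in saline and 35.4 ± 2.32 in AC-T libraries (log2 fold change 0.026 ± 0.045, adjusted p = 0.781).

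The low value of Mrpl23 cannot be read as a low level of its messenger RNA. Mrpl23 encodes a protein at the exit of the peptide tunnel and has a processed pseudogene, Mrpl23-ps1. In the GENCODE transcripts of the older build GRCm38, the 441 bases that encode the protein of 146 residues are identical in both, with 0 mismatches. Of the 31-base words of the pseudogene's transcript, 94.6% also occur in Mrpl23, so reads of these words cannot be assigned to 1 of them by sequence. The first 60 coding bases are shown because both carry them letter for letter.
Mrpl23 and Mrpl23-ps1: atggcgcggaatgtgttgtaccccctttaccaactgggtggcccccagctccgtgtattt

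Mrpl23 was given 20.7 to 53.6 counts per library and Mrpl23-ps1 558.9 to 778.0, so the gene took 2.70% to 7.33% of the pair. None of these values was a whole number, as is the case where reads are divided between rows. Mrpl23 alone had 1.26 ± 0.355 CPM in saline and 1.13 ± 0.280 in AC-T libraries, with a log2 fold change of −0.15 ± 0.28 (adjusted p = 0.794). Summed with its pseudogene, the log2 fold change was 0.043 (adjusted p = 0.678). Fewer words were shared by Mrps36 with Mrps36-ps1 (77.5%) and Mrps36-ps2 (71.3%), and by Mrpl48 with Mrpl48-ps (56.8%), so these rows are uncertain to a lesser degree. Values that are not whole numbers were not confined to these genes. Of the 81 rows 22 held some, and 15 held only such values, among them Mrps33. All 4 pseudogene rows had intervals within 1.5-fold. None passed in edgeR, DESeq2 or limma-voom, and 0 had an unadjusted p under 0.05.

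Members differed more between mouse series of the same treatment than between treatments, by the median. In saline mice the large subunit sums were 1292 to 1380 CPM in series 2 and 1275 to 1283 in series 3. In AC-T mice they were 1326 to 1358 in series 5 and 1219 to 1262 in series 6. The small subunit sums were 709 to 737 and 687 to 700 in saline, and 723 to 727 and 672 to 695 in AC-T mice. In each treatment, every library of the higher-numbered series thus lay below every library of the lower-numbered one. The median log2 difference over the 81 was −0.076 for series 3 minus 2, with 64 of 81 negative. It was −0.096 for series 6 minus 5, with 66 of 81 negative, and all genes tested had medians of −0.0024 and 0.0055.

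Single members rarely passed between series. Mrps27, an RNA-binding protein of the small subunit, passed for series 3 minus 2 (1.23% of members, 1.03% of all genes tested). It had 25.5, 25.5 and 24.4 CPM in series 2, then 19.7, 21.1 and 21.4 in series 3, a log2 difference of −0.28 (adjusted p = 0.0351 in edgeR). Its AC-T values of 23.9 to 24.8 lay above series 3 and overlapped series 2. It no longer passed when any 1 of the 6 saline mice or either AC-T mouse of series 6 was left out. Between series 6 and 5 no member passed in edgeR (0.117% of all genes tested did), also with library totals as the scaling. An unadjusted p under 0.05 was reached by 20 members in each contrast, or 24.7%, against 20.1% and 13.5% of all genes tested. Mrpl20 had 49.0 to 54.9 CPM in series 5 and 42.4 and 38.8 in series 6 (log2 difference −0.37, adjusted p = 0.0876). What differs between the series beyond the mouse numbers is not given in the sources used here.

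Other families of translation and respiration had lower medians than the mitochondrial ribosomal proteins. The 81 cytosolic ribosomal protein genes tested had a median log2 fold change of −0.082, with 75 negative, 5 past the threshold as lower (6.17%, against 3.58% of all genes tested) and none as higher. The 81 nuclear genes of the respiratory chain and ATP synthase had a median of −0.12, with 73 negative, 3 past the threshold as lower (3.70%, close to that 3.58%) and none as higher. In either direction 8.47% of all genes tested passed. An unadjusted p under 0.05 was reached by 9.88% of the cytosolic and 28.4% of the respiratory genes, against 24.9% of all genes tested. No gene of the 2 families passed as higher in DESeq2 or limma-voom either. The 15 mitochondrially encoded genes tested had a median of −0.16. Of these none passed in edgeR or limma-voom, 1 had an unadjusted p under 0.05, and 1 passed in DESeq2. Their share of all counts was 10.1 ± 1.57% in AC-T and 11.5 ± 0.93% in saline libraries (exact permutation test, 2-sided p = 0.115). Within a treatment, these families also differed between mouse series, in most cases by more than these medians. For series 3 minus 2 and series 6 minus 5 the medians were 0.11 and −0.19 for cytosolic ribosomal proteins, −0.044 and −0.17 for the respiratory genes and 0.24 and −0.38 for the mitochondrially encoded genes. These are descriptions of each family, and the difference between families was not tested.

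**Figure D4:**
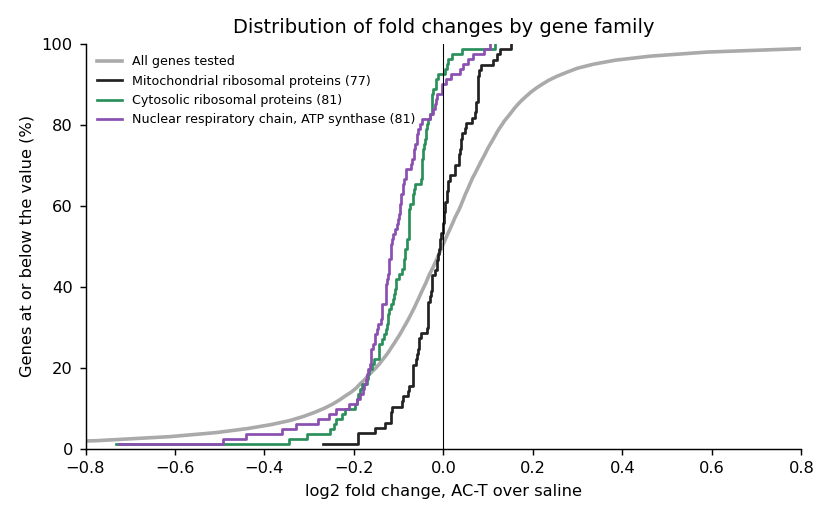
Share of genes (%, vertical axis) with a log2 fold change of AC-T over saline at or below the value on the horizontal axis. The mitochondrial ribosomal proteins (77 without pseudogenes, black) cross 50% near 0, cytosolic ribosomal proteins at −0.082 and the nuclear respiratory genes at −0.12, and all genes tested (grey) spread more widely.

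Genes that build and serve the mitochondrial ribosome were read from 6 lists with 118 symbols, of which 107 rows were tested and 3 passed, all lower. This share is below the 3.58% of all genes tested that passed as lower, so the 3 genes are described singly and not as a result about the lists. Mpv17l2, an inner membrane protein needed to assemble the ribosome, fell by 0.25 ± 0.06 on the log2 scale (adjusted p = 0.0212) and was 1 of 26 assembly and RNA modification genes. It had 14.2 to 16.1 CPM in saline and 11.6 to 13.6 in AC-T libraries, without overlap. Ssbp1, which binds single-stranded mitochondrial DNA, fell by 0.20 ± 0.04 (adjusted p = 0.0209) and was 1 of 24 genes of mitochondrial DNA and RNA. It had 14.1 to 16.0 CPM in saline and 12.8 to 14.1 in AC-T libraries, the groups just apart. Esrra, a nuclear receptor that drives mitochondrial genes, fell by 0.23 ± 0.05 (adjusted p = 0.0259) and was 1 of 12 regulators. It had 48.4 to 58.5 CPM in saline and 43.9 to 45.9 in AC-T libraries, also apart. Of all genes tested, 3.1% had AC-T libraries that all lay below the saline ones. None of the 3 passed with mouse series as a random effect in limma-voom (adjusted p 0.0815 to 0.109), nor with the thalamic or the neuron marker score in the fit, nor without AC-T mouse 602, nor without mouse series 2 or 6. Mpv17l2 and Esrra also did not pass without AC-T mouse 502, nor Esrra without mouse 503 (adjusted p = 0.0509 in edgeR). With the length trend removed (described below), Ssbp1 and Esrra had adjusted p of 0.0640 and 0.0799. Over 33 alternatives Mpv17l2 and Ssbp1 passed in 25 each and Esrra in 23, and not every fit in which they failed is named here.

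Of the other lists none had a gene past the threshold in edgeR or limma-voom. Among 6 ribosomal proteins with symbols outside the Mrpl and Mrps series, 0 had an unadjusted p under 0.05 and 0 passed in DESeq2. Aurkaip1, a small subunit protein, had the smallest p of them with a log2 fold change of −0.087 ± 0.045 (adjusted p = 0.261). Among 17 rows of translation factors 2 had an unadjusted p under 0.05 and 1, Guf1, passed in DESeq2. Guf1, a GTPase that acts on stalled mitochondrial ribosomes, had 33.6 ± 2.26 CPM in saline and 29.9 ± 2.66 in AC-T libraries (−0.17 ± 0.06, adjusted p = 0.136). Among 22 genes that charge mitochondrial transfer RNA 2 had an unadjusted p under 0.05 and 1 passed in DESeq2. In edgeR, Nrf1 and Gabpa, regulators with known sites in promoters of mitochondrial genes, had log2 fold changes of 0.19 (adjusted p = 0.0674) and 0.13 (adjusted p = 0.143).

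Fold changes of the members varied with transcript length. Across the 81 genes, Spearman's rho between log2 fold change and the median transcript length was 0.28, or 0.37 with the longest transcript. It was 0.47 in the large and 0.098 in the small subunit, and 0.12 over all genes tested. With genes placed by position it was 0.50 in the large and −0.10 in the small subunit. In cytosolic ribosomal proteins it was 0.42 and in the nuclear respiratory genes 0.55, so the trend was not particular to the members. Genes are not independent replicates and share the libraries, so these are descriptions. Over the 77 members without pseudogenes the rho was 0.31. Of the 39 of these genes with at most 1047 bases, 25 were below 0 and 4 had an unadjusted p under 0.05, all lower. Of the 38 longer genes 18 were below 0 and 2 had such a p, both higher. Across all 81, the rho with length within a treatment was −0.17 for series 3 minus 2 and 0.26 for series 6 minus 5. With the trend of each library with length removed, a step chosen after seeing the data, the log2 fold change of Mrpl54 was −0.21 and its adjusted p 0.0339. With guanine and cytosine content the rho was −0.30, and −0.15 over all genes tested.

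**Figure D5:**
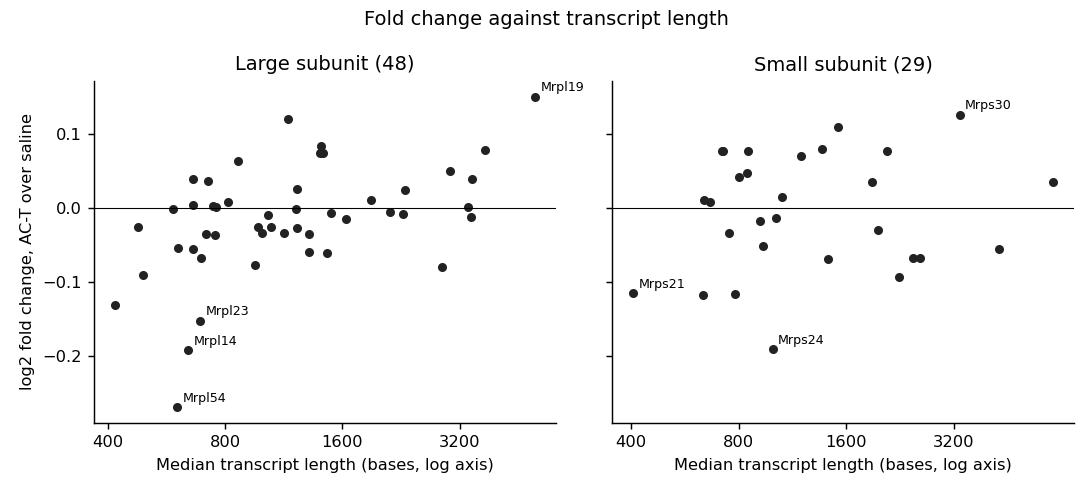
Log2 fold change of AC-T over saline (vertical axis) against median transcript length (bases, log axis) for the 48 large and 29 small subunit genes. The named short genes Mrpl54, Mrpl14 and Mrps21 lie below 0, and the long genes Mrpl19 and Mrps30 above it. Other short genes, such as Mrps17 and Mrps33, lie above 0. Spearman's rho is 0.47 in the large and 0.098 in the small subunit.

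Promoters of the members were searched for short words bound by factors known at mitochondrial genes, and for the GC box and the TATA word. RefSeq promoters of build GRCm38.p6 (250 bases before to 50 after the start site) were matched for 68 of the 77 genes. The ETS family word CCGGAAG stood in 25 of 68 (36.8%), searched like the others on both strands, against 18.4% of 10590 tested genes and 9.93% of all 27025 genes with a promoter. The core word of NRF1 sites, GCATGCGC, stood in 8 (11.8%, against 5.80% and 3.05%). The YY1 word AAGATGGC stood in 12 (17.6%, against 4.98% and 3.19%). The GC box GGGGCGGGG was in 13 (19.1%, against 24.8% and 12.9%) and TATAAA in 5 (7.35%, against 8.66% and 15.7%). At least 1 of the first 3 words was in 37 promoters, and the median log2 fold change of these 37 genes was −0.012, beside −0.00080 for the other 31. A match is a run of letters and not a measured site.

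The following 30-base windows, written 5′ to 3′ on the gene's strand with the word in capitals, show how these words sit in promoters of members described above.
Mrpl43, ETS word in chr19:45006480-45006509 (minus strand), starting at −56 from the start site: tcgcggtgactCCGGAAGcaaaactctcca
Mrps18a, ETS word in chr17:46110967-46110996 (plus strand), starting at −26: acacccctgctCCGGAAGcggaagtgcaca
Mrps21, ETS word on the opposite strand in chr3:95871478-95871507 (minus strand), starting at 19 in the transcribed part: cgtagcttccgCTTCCGGtccgcagagacc
Mrpl32, NRF1 word in chr13:14613104-14613133 (minus strand), starting at −85, overlapped by its own reverse complement: ttgacccttgcGCATGCGCaagaggggcct
Mrps24, YY1 word in chr11:5707652-5707681 (minus strand), starting at 37: cgggtcgcgccggcccAAGATGGCgtggtc
Mrps18a, YY1 word in chr17:46111004-46111033 (plus strand), starting at 12: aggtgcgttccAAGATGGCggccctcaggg
Mrps18a thus carries both words within its 2 windows. In Mrps24 and Mrps18a the YY1 word lies behind the start site. Yy1, the gene of the factor named for this word, had a log2 fold change of 0.079 (adjusted p = 0.545 in edgeR).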

How the data were processed

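Polyadenylated RNA of hippocampal punches was made into stranded libraries and read on a NextSeq 2000. Per the submitters' processing notes and series text, base calls were converted with Dragen 4.3.6, reads checked with FastQC 0.11.9 and quantified with Salmon 1.9.0, and the notes name the build GRCm39. The values are estimated counts per gene, made by the authors with Salmon, which divides a read shared by similar genes among them, per the submitters' processing notes. They were rounded for edgeR 4.0.16 in R 4.3.3 (TMM scaling, filterByExpr with a minimum count of 10, quasi-likelihood test, 2-sided, 5 AC-T against 6 saline libraries). Benjamini-Hochberg adjusted p under 0.05 over 15353 genes passed. CPM are counts on a common, TMM-scaled library size, given as mean ± SD over mice. Each SE is the log2 fold change divided by the root of its F statistic, and 95% intervals use the fit's degrees of freedom. Replicates are separate mice. Between-series contrasts came from a fit with the 4 mouse series as groups.

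The members and gene lists were chosen with earlier results of these data known. Genes were named by rule: each member past the threshold, then the smallest p up to 10, the 4 highest and 2 lowest levels per length, the 2 most and 2 least variable in saline, Mrps18a, Mrps30 and Mrps36, and in each pathway list the genes past the threshold (at most 4) or the smallest p. A gene that this rule names in 1 list is not reported here. Mrps27, Nrf1, Gabpa, Yy1, Urgcp, Mrpl48 and the other pseudogenes were named after their values were seen. Transcript lengths, overlaps and the Mrpl23 alignment (Biopython 1.88) used GENCODE transcripts of build GRCm38, so no coordinates are set beside the counts, and promoters came from RefSeq. The test was checked on simulated data drawn over all genes, where 17.0% of 100 genes changed by 1.2-fold and 76.0% of 100 changed by 1.5-fold were found and 4.12% of calls were false. Alternatives included DESeq2 1.42.0, limma-voom (limma 3.58.1), other scalings and filters, marker scores as covariates, and leaving out each mouse or mouse series.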

Additional observations from a re-analysis of the deposited data

How the results depend on the processing

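No paired analysis was possible because the mouse numbers of the 2 treatments do not coincide. The count of members past the threshold, 1 in the fit reported, was 3 with library totals (6.74% of all genes tested passed) and 5 with DESeq2 (16.7%). At an adjusted p under 0.1 it was 4, for which the share of all genes is not given here. It was 0 with mouse series as a random effect (1.91%) or with the thalamic (0.00651%) or neuron marker score (1.17%) as covariate. Where so few genes pass, a count of 0 says nothing particular to the members. Without mouse series 2 it was 2 (3.54% of all genes tested passed), without series 5 it was 3 (1.99%) and without series 6 it was 0 (2.63%). It was 0 to 2 when 1 mouse was left out (4.03% to 8.04%). Mrpl54 was not among the members counted without series 2 or 5. Over the 6 pathway lists the count, 3 as reported, was 10 with DESeq2 and 8 at an adjusted p under 0.1. It was 0 with the random effect, with either covariate and without series 2, and 1 (Mtif3) without series 6. When 1 mouse was left out it was 0 to 4. The shares of all genes in these fits are those given above. The large subunit median moved to 0.081 with the thalamic score and −0.095 without series 5, and lay between −0.027 and 0.0073 when 1 mouse was left out. The small subunit median moved to 0.12 with the thalamic score, −0.053 with the neuron score, −0.047 without series 3 and −0.062 without series 5, and lay between −0.018 and 0.031 when 1 mouse was left out. With the thalamic score 59 of 81 members were above 0, with a median SE of 0.13 in place of 0.060. For series 3 minus 2 the count was 2 with library totals and 0 to 1 when 1 mouse was left out. For series 6 minus 5 it reached 2 (Mrpl20 and Mrpl41) without AC-T mouse 502. The shares of all genes in these fits are not given here, so these counts are not read as results about the members. The share of mitochondrially encoded counts differed by −1.84 percentage points without AC-T mouse 503 (exact permutation p = 0.0381), within a range of −1.84 to −0.970 when 1 mouse was left out. Signs turned for some members that had not passed: Mrps18a (0.043 with the thalamic score, 0.0099 with the length trend removed), Mrps36 (0.13 with the thalamic score, 0.024 without series 2), Mrpl16 (−0.0015 without series 3), Mrpl23 (0.064 with the neuron score, 0.17 without series 3, 0.070 without series 5, 0.043 summed with its pseudogene) and Aurkaip1 (0.050 with the thalamic score). The cause was not tested in any of these. Over 33 alternatives Mrpl54 stayed below 0, between −0.35 and −0.21, and passed in 25, with adjusted p from 0.000463 to 0.870. Among the other members followed over these alternatives, Mrps24 passed in 4, Mrpl14 in 3, Mrpl19 in 2, and Mrps21 and Mrpl16 in 1 each. DESeq2 gave no adjusted p for Mrpl23. No measure fell outside its group by Dixon's test among 66 groups tested. The share of intervals within 1.2-fold rests on the fit without series or tissue makeup, and Mrpl23 and the pseudogenes are limited by shared sequence.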
